A study of Rattus norvegicus with 10 samples.

Results

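The circadian clock genes Per1, Per2, Per3, Cry1, Cry2, Nr1d1, Nr1d2, Dbp, Tef and Arntl were followed in RNA of the milk fat layer of lactating Sprague Dawley rats. They were taken by their symbols, and all 10 were found among the 16748 genes listed for each library. The libraries came from 5 samples of dams in environmental enrichment (EE), a large cage on several levels with ramps, tubes and changing toys, and from 5 samples of dams in standard laboratory cages (SD). All were wild type rats kept in a daily light and dark cycle, and milk was taken on the morning of postnatal day 10 (P10), after an hour away from the litter, under isoflurane and with oxytocin given. Before birth the EE dams were parted by a divider inside their cage, and the SD dams were moved to cages of their own. The clock time of each collection is not given in the labels, and neither they nor the methods say outright that every library is a different dam, so the p-values below measure the spread between these samples.

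The mammalian clock is a loop of transcription. BMAL1, the protein of Arntl, pairs with CLOCK or NPAS2 and binds E-boxes to switch on the Per, Cry, Nr1d, Dbp and Tef genes. PER and CRY proteins then return to the nucleus and block that pair, while the REV-ERB receptors encoded by Nr1d1 and Nr1d2 repress Arntl through ROR elements, and DBP and TEF act through D-boxes. In tissues with a running clock, Arntl peaks at about the opposite time of day to Nr1d1 and Dbp, and Per1 also answers quickly to glucocorticoids and to other signals from outside the cell. Each library is a single time point, so the order of these genes through the day was not measured.

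Values are given as normalized counts, obtained from the deposited log2 values, and differences as EE minus SD on the deposited log2 scale, which understates changes of genes with few counts. The libraries held an estimated 52010493 to 63188619 reads in EE and 44135827 to 69702982 reads in SD. Of the markers of secretory epithelium, 9 of 9 were listed, with casein transcripts at 40.4% to 61.0% of all normalized counts in EE and 57.0% to 61.2% in SD. The summed fibroblast markers stayed at 0 to 4.21 normalized counts in EE and 1.93 to 13.6 in SD, with Dcn at 0 in every library. Of the fat cell markers, Plin1 was at 0 in every library and Adipoq above 0 in 1 of 10, while Fabp4 was at 33.8 to 145.4 normalized counts in EE and 39.1 to 143.3 in SD. The summed myoepithelial markers, nearly all of it Acta2, ranged over 2036 to 2753 normalized counts in EE and 1416 to 2219 in SD, whereas Myh11 of the same list ranged over 18.9 to 41.6 in EE and 26.6 to 125.5 in SD. The summed leukocyte markers ranged over 107 to 686 in EE and 178 to 754 in SD. In these samples, fewer cells of a type and less RNA per cell cannot be told apart. SD replicate 4 stood apart from the other libraries, with a median absolute log2 difference of 0.262 from the median of the others, against 0.108 to 0.167 in EE libraries and 0.123 to 0.174 in the other SD libraries. Results are therefore given over all 10 libraries and over the 9 libraries without SD replicate 4.

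The promoters of 9 of the 10 genes were found in the RefSeq annotation of the rat build GRCr8, each as 250 bases before and 50 after the annotated start, with a pair of starts for Nr1d1, and Arntl under its newer name Bmal1. Both strands were searched for an E-box (CACGTG), an E-box-like element (CACGTT), a D-box (TTATGTAA), the core of a ROR element (TAGGTCA) and a cyclic AMP response element (TGACGTCA), and no pair of matches shared bases. Those of Per2, Tef, Nr1d1 and Arntl are printed because together they hold the binding letters of each arm of the loop. Capitals mark the motifs found. The Per2 promoter (chr9:99496944-99497243, GRCr8, minus strand) held a D-box at -192 and an E-box-like element at -62 from the start, and that of Tef (chr7:115206577-115206876, plus strand) an E-box at -198. One Nr1d1 promoter (chr10:84229405-84229704, minus strand) held an E-box at -191, and that of Arntl (chr1:176766078-176766377, plus strand) a ROR core at -16, where REV-ERB receptors are known to bind in mouse and human.
Per2: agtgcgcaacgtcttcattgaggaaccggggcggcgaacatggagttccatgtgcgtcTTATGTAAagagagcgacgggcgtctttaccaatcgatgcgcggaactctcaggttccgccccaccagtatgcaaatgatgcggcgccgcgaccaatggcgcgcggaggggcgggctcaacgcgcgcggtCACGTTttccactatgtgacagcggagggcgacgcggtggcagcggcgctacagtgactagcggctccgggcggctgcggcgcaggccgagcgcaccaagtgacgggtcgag
Tef: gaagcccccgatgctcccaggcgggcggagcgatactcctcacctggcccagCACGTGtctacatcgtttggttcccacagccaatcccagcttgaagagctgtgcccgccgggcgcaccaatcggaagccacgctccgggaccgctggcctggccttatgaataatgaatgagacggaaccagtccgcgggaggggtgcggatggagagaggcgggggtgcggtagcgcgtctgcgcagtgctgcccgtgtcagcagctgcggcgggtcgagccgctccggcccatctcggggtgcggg
Nr1d1: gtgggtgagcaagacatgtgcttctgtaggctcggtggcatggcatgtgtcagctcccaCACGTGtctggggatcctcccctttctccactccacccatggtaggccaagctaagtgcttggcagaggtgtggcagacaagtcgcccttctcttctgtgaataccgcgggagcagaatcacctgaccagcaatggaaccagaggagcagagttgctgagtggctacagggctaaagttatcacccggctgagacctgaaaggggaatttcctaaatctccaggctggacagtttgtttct
Arntl: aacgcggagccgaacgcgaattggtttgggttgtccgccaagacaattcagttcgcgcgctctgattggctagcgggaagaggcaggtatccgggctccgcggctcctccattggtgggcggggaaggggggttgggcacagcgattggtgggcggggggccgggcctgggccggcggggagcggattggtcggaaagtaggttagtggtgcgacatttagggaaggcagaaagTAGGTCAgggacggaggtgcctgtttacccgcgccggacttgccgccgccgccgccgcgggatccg
An E-box was found in 6.42% of 33469 RefSeq promoters of this length, an E-box-like element in 4.83%, a D-box in 0.893%, a cyclic AMP response element in 1.83% and a ROR core in 2.63%. Cry2 held an E-box-like element at -212 and the other Nr1d1 promoter held one at -174, while the windows of Per1, Per3, Nr1d2 and Dbp held none of these letters.

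Between housing groups, few clock genes differed by more than the spread of the libraries. Over all 10 libraries, 5 of the genes were higher and 5 lower in EE, and at an unadjusted p under 0.05 in limma 0 were called higher and 1, Nr1d2, was called lower. Across the 12992 genes tested, 3.35% were called higher and 4.05% lower at the same threshold. Over the 9 libraries without SD replicate 4, 0 were called higher and 2, Nr1d2 and Arntl, were called lower, against 5.15% called higher and 5.24% called lower of 12955 genes. None of the 10 passed the Benjamini-Hochberg adjustment over all genes, which 0 genes passed over 10 libraries (limma, with 961 at an unadjusted p under 0.05) and 1 gene passed over 9 (1346). The median difference of the 10 genes was 0.13 over 10 libraries, against -0.0087 for all genes tested, and it was -0.0062 over 9 libraries, against -0.0016. EE and SD libraries overlapped for every one of the 10 genes. The share of all genes tested without such overlap was not counted, so this describes the values and sets the clock genes apart from no others.

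**Figure D1:**
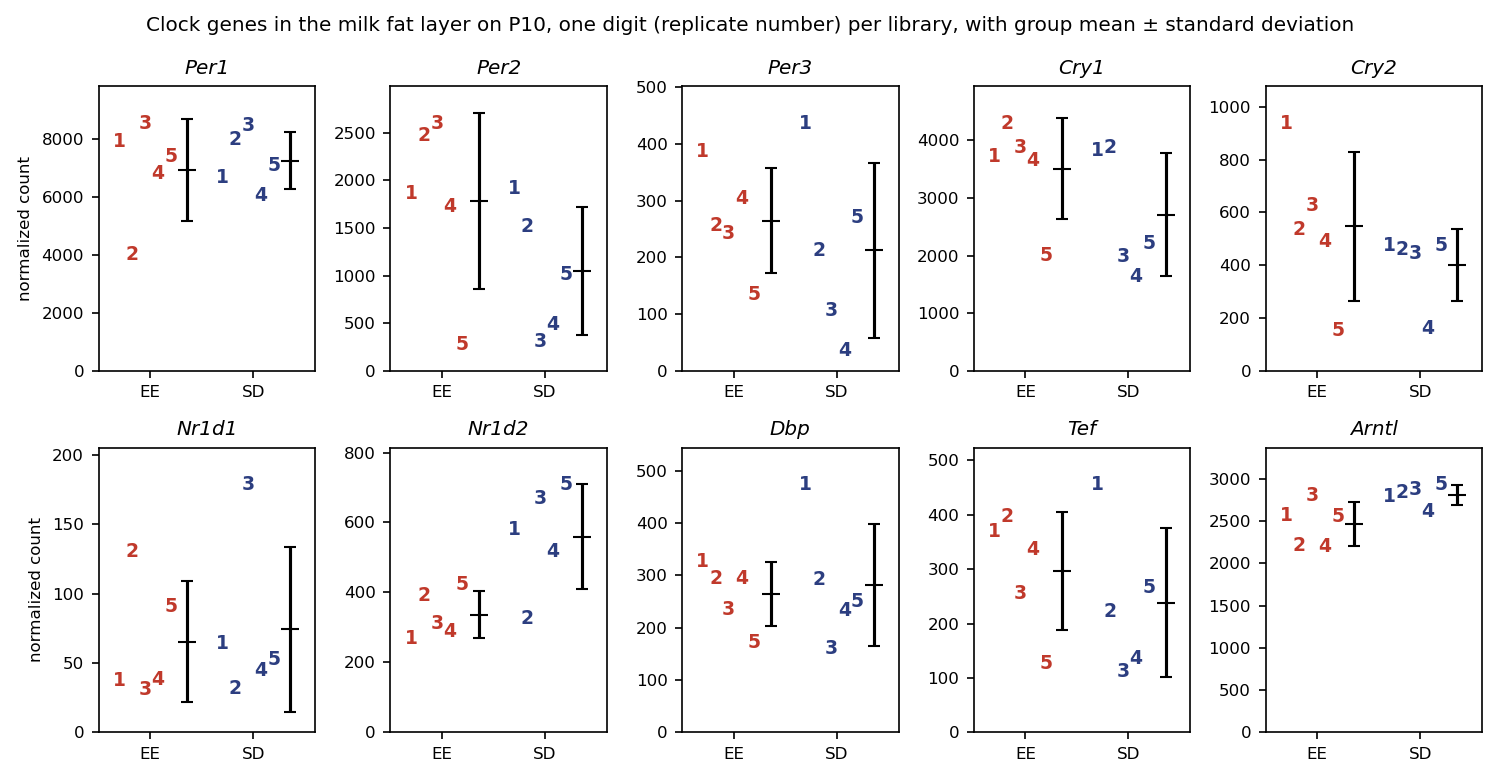
Normalized counts (vertical axis, linear and starting at 0) of each clock gene in 5 EE libraries (left, red) and 5 SD libraries (right, blue), each digit being the replicate number of a library, with the group mean ± standard deviation in black. EE lies mostly below SD for Nr1d2 and Arntl, and EE replicate 5, SD replicate 3 and SD replicate 4 lie low for Per2, Per3, Cry1 and Tef.

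Nr1d2, which encodes the repressor REV-ERB beta, was the clock gene with the smallest p. It had 269, 391.9, 312, 288 and 422 normalized counts in EE replicates 1 to 5, against 580, 325, 669, 517 and 708 in SD replicates 1 to 5. All EE libraries lay below 4 of the 5 SD libraries, and only SD replicate 2 fell inside the EE range. The means were 336 ± 67.1 in EE and 560 ± 151 in SD (standard deviation, n = 5 each). The log2 difference was -0.60 ± 0.19 (SE), with a 95% interval of -0.999 to -0.19 (limma, p = 0.00728, adjusted p = 0.556), and a two-sided exact permutation test over all arrangements of the libraries gave p = 0.0238. Without SD replicate 4 the difference was -0.61 ± 0.20 (SE, limma, p = 0.0114, adjusted p = 0.377, exact permutation p = 0.0397). Nr1d2 was lower at an unadjusted p under 0.05 in each of 22 alternatives, with differences of -0.77 to -0.51, but its adjusted p stayed far above the threshold in both sets of libraries.

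For its relative Nr1d1, which encodes REV-ERB alpha, the groups overlapped over most of their range. It had 37.3, 131, 30.7, 38.1 and 90.8 normalized counts in EE, against 64.0, 32.0, 179, 44.5 and 52.7 in SD. The highest libraries were SD replicate 3 and EE replicate 2, so that high and low values occurred in both groups. The difference was -0.07 ± 0.28 (SE, limma, 95% interval -0.68 to 0.53, adjusted p = 0.961, exact permutation p = 0.810). Its values rest on 28 to 152 estimated reads per library, and no other of the 10 genes had so few in its highest library. Leaving out SD replicate 3, EE replicate 3 or EE replicate 1 turned its sign, to 0.15, 0.03 and 0.0008.

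Arntl, the gene of the activator BMAL1, was the steadiest of the 10 genes. It had 2572, 2215, 2805, 2196 and 2554 normalized counts in EE, against 2797, 2834, 2881, 2619 and 2932 in SD. Only EE replicate 3 reached the range of the SD libraries. The means were 2469 ± 260 in EE and 2812 ± 120 in SD (standard deviation, n = 5 each), and the difference was -0.19 ± 0.087 (SE, limma, 95% interval -0.38 to 0.0016, p = 0.0517, adjusted p = 0.677, exact permutation p = 0.0238). Without SD replicate 4 it was -0.21 ± 0.084 (SE, limma, p = 0.0287, adjusted p = 0.431, exact permutation p = 0.0238), so that this call rests on which libraries enter and on the test. Arntl was lower in all 22 alternatives, by -0.30 to -0.15, at an unadjusted p under 0.05 in 8 of them.

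**Figure D2:**
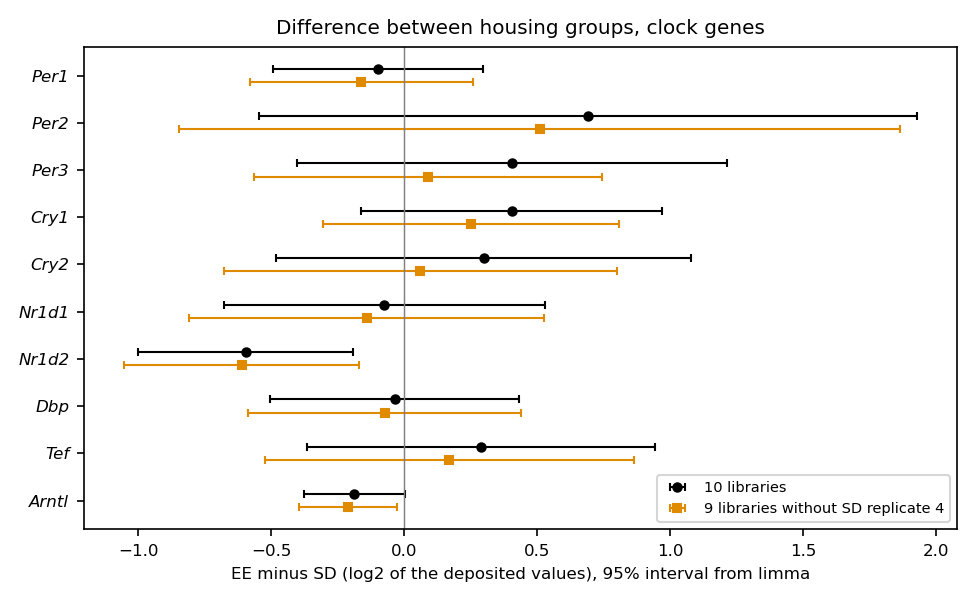
EE minus SD difference of each clock gene (horizontal axis, log2 of the deposited values) with its 95% interval from limma, over 10 libraries (black circles) and over 9 libraries without SD replicate 4 (orange squares). The interval of Nr1d2 lies below 0 in both sets, that of Arntl only without SD replicate 4, and Per2 has the widest interval, from -0.55 to 1.93 over 10 libraries.

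Per2, a core repressor of the CLOCK and BMAL1 pair, varied more between libraries of a group than between the groups. It had 1858, 2469, 2598, 1723 and 279 normalized counts in EE, against 1911, 1520, 308, 491 and 1011 in SD. EE replicate 5 was the lowest library of all and SD replicate 3 the next, while EE replicates 2 and 3 were the highest, and the highest library held 9.32 times the count of the lowest. The difference was 0.69 ± 0.57 (SE, limma, adjusted p = 0.825, exact permutation p = 0.310), and it was 0.51 ± 0.61 without SD replicate 4 (limma, adjusted p = 0.805). It was 1.22 without EE replicate 5 and 1.46 with the casein share of each library as a covariate, both past an unadjusted p of 0.05 in limma. EE replicate 5 also had the lowest casein share, 40.4%.

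The other Period genes were called in neither direction. Per3, whose protein is the least needed of the 3 for rhythms in mouse, had 387, 256, 241, 303 and 135 normalized counts in EE, against 436, 212, 106, 35.9 and 270 in SD. Its lowest libraries were SD replicates 4 and 3 and then EE replicate 5. The difference was 0.41 ± 0.37 (SE, limma, adjusted p = 0.855, exact permutation p = 0.405) and 0.09 ± 0.30 without SD replicate 4 (limma, adjusted p = 0.927). Per1, the member of the family that responds fastest to outside signals, had 7907, 4017, 8555, 6829 and 7397 normalized counts in EE, against 6685, 7976, 8485, 6047 and 7107 in SD. A single low library, EE replicate 2, set its range, and the difference was -0.10 ± 0.18 (SE, limma, adjusted p = 0.918, exact permutation p = 0.762). Without EE replicate 2 it was 0.08, with the opposite sign. Of the libraries lowest in Per2 and Per3, SD replicate 4 was also low in Per1, at the second lowest level, whereas EE replicate 5 was the sixth lowest and SD replicate 3 the ninth of 10.

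The Cryptochromes, which with the PER proteins block CLOCK and BMAL1, fell into separate levels across libraries. Cry1 had 3710, 4296, 3876, 3655 and 1999 normalized counts in EE, against 3818, 3882, 1976, 1638 and 2218 in SD. The 4 low libraries, EE replicate 5 and SD replicates 3, 4 and 5, were parted from the 6 high ones by a gap of 0.52 of the whole log2 range. The difference was 0.40 ± 0.26 (SE, limma, adjusted p = 0.763, exact permutation p = 0.278), with 0.25 ± 0.25 without SD replicate 4 (limma, adjusted p = 0.760) and 0.59 without EE replicate 5, past an unadjusted p of 0.05 in limma. Cry2 had 938, 534, 627, 491 and 152 normalized counts in EE, against 473, 459, 443, 160 and 474 in SD. For Cry2, 4 EE libraries lay above every SD library and EE replicate 5 lay below all of them, so that no EE library fell inside the SD range. The difference was 0.30 ± 0.36 (SE, limma, adjusted p = 0.890, exact permutation p = 0.437), with 0.06 ± 0.33 without SD replicate 4 (limma, adjusted p = 0.956) and 0.62 without EE replicate 5, past an unadjusted p of 0.05 in limma.

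Dbp and Tef encode related factors of the PAR bZip family, which carry the clock signal to output genes through D-boxes. Dbp had 325, 294, 235, 294 and 171 normalized counts in EE, against 473, 292, 160, 233 and 250 in SD. Tef had 370, 396, 256, 336 and 126.2 normalized counts in EE, against 455, 221, 112, 135 and 266 in SD. SD replicate 1 was the highest and SD replicate 3 the lowest library for both genes, with EE replicate 5 the next lowest, and the EE values lay within the SD range throughout. The difference was -0.04 ± 0.22 for Dbp (SE, limma, 95% interval -0.50 to 0.43, adjusted p = 0.976, exact permutation p = 0.921) and 0.29 ± 0.30 for Tef (SE, limma, adjusted p = 0.877, exact permutation p = 0.429). Dbp changed sign when EE replicate 5 or SD replicate 1 was left out, to 0.07 and 0.13, and Tef was 0.17 without SD replicate 4 and 0.50 without EE replicate 5.

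The spread of these genes inside the housing groups was set against that of the 10158 genes with a mean normalized count of at least 10. The standard deviation of the deposited log2 values within groups was 1.10 for Per2, above 99.6% of those genes, 0.70 for Per3 (98.3%), 0.68 for Cry2 (98.2%), 0.55 for Tef (95.6%), 0.50 for Nr1d1 (93.3%) and 0.49 for Cry1 (92.7%). Dbp, Per1 and Nr1d2, at 0.37, 0.33 and 0.31, were also above the median gene, whose standard deviation was 0.24. They exceeded 81.6%, 74.8% and 71.5% of the genes. Arntl, at 0.11, varied less than most, with 6.17% of the genes below it. Counting error alone differs with the level of a gene, and Per2 rested on 259 to 3704 estimated reads per library, Per3 on 22 to 363 and Arntl on 1641 to 4268. The deposited scale also narrows the spread of genes with few counts, which can raise these shares. Genes of like level were not compared separately.

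**Figure D3:**
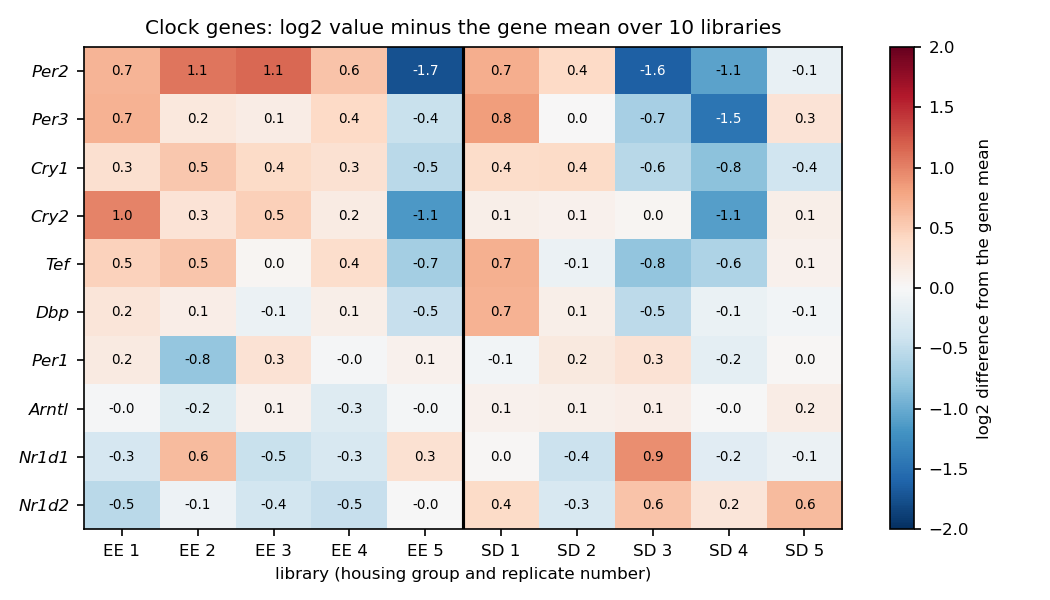
Deposited log2 value of each clock gene (rows) in each library (columns, 5 EE left of the line and 5 SD right of it) minus the mean of that gene over 10 libraries, with red above and blue below the mean and the difference written in each field. Per2, Per3, Cry1, Tef and Dbp are below their means in EE replicate 5, SD replicate 3 and SD replicate 4, and Cry2 in EE replicate 5 and SD replicate 4, while Per1, Arntl, Nr1d1 and Nr1d2 show other orders of the libraries.

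Per2, Per3 and Dbp each varied with Tef from library to library. Pearson and Spearman correlations were computed over 10 libraries for the 28 pairs of 8 genes, with p from 100000 permutations adjusted over the pairs. Cry1 and Cry2 were left out because their libraries fall into separate sets, with widest gaps of 0.52 and 0.53 of the log2 range. Arntl, with a widest gap of 0.492 that left 2 libraries below and 8 above, fell just under the cut and was kept. Dbp and Tef gave r = 0.882 (permutation p = 0.00014, adjusted p = 0.00392) and rho = 0.952 (adjusted permutation p = 0.00224), with r = 0.828 without the 2 libraries farthest from the median of Dbp and r = 0.936 on deviations from the group means. Per3 and Tef gave r = 0.875 (permutation p = 0.00048, adjusted p = 0.00672) and rho = 0.891 (adjusted permutation p = 0.0132), with r = 0.914 without the farthest 2 libraries and r = 0.864 on deviations. Per2 and Tef gave r = 0.888 (permutation p = 0.00157, adjusted p = 0.0147) and rho = 0.770 (adjusted permutation p = 0.0904), with r = 0.757 without EE replicate 5 and SD replicate 3 and r = 0.878 on deviations. For both genes the widest gap left 3 libraries below, EE replicate 5, SD replicate 3 and SD replicate 4, and 7 above. SD replicate 4 stayed in the r of 0.757. Whether Per2 and Tef vary together among the 7 higher libraries was not tested.

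All 6 pairs among Per2, Per3, Tef and Dbp were positive, with r between 0.708 and 0.888, and 3 of them passed the adjusted threshold by Pearson's r. Per2 and Dbp did not pass (r = 0.748, adjusted permutation p = 0.0595; rho = 0.697, adjusted permutation p = 0.171), and their r was 0.376 without EE replicate 5 and SD replicate 3. Without the 2 libraries farthest from the median, r was 0.775 for Per2 and Per3 and 0.892 for Per3 and Dbp. By Spearman's rho, Per3 and Dbp passed as well (rho = 0.879, adjusted permutation p = 0.0132, with r = 0.708). None of the other 24 pairs passed by either measure. Nr1d1 and Nr1d2 gave r = 0.530 with each other (permutation p = 0.114, adjusted p = 0.359; rho = 0.648, adjusted permutation p = 0.223). The 3 pairs with Tef share 1 gene, and the 10 libraries share their depth and cell content across all pairs.

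**Figure D4:**
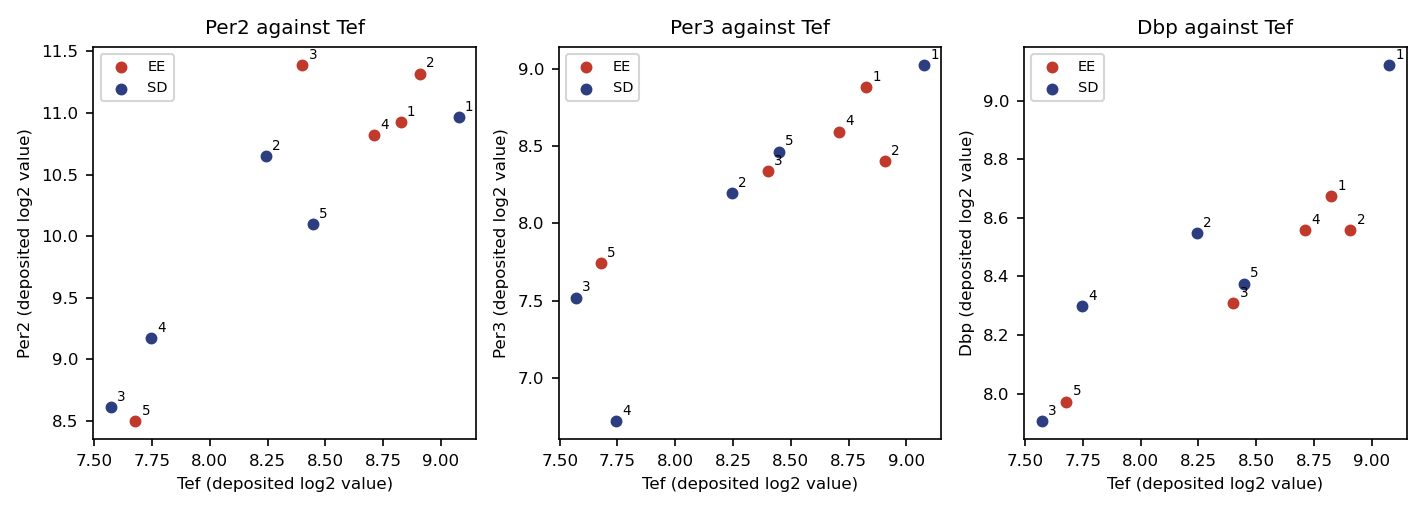
Deposited log2 values of Per2, Per3 and Dbp (vertical axes) against Tef (horizontal axis), each point being a library with its replicate number, EE in red and SD in blue. EE replicate 5, SD replicate 3 and SD replicate 4 lie at the low end of Tef in each panel, and the other 7 libraries lie at higher Tef values.

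No relation of Arntl with the genes it drives passed the adjusted threshold. Over 10 libraries, 7 of the other genes were set against it, and the lowest adjusted p was 0.287, for Per1 (r = 0.650, permutation p = 0.0410; rho = 0.515, permutation p = 0.135). That relation was r = 0.282 without the 2 libraries farthest from the Arntl median, EE replicates 4 and 2, but of these only EE replicate 2 lowered it when left out alone (r = 0.366, against r = 0.795 without EE replicate 4). On deviations from the group means it was r = 0.746 (permutation p = 0.0114). Arntl gave r = 0.515 with Nr1d2 (permutation p = 0.132, adjusted p = 0.462; rho = 0.588, permutation p = 0.0816), with r = 0.04 on deviations from the group means. It gave r = -0.257 with Per2 (rho = -0.200, adjusted permutation p of r = 0.837) and r = -0.334 with Tef (rho = -0.345, adjusted permutation p of r = 0.798).

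Per2 and Nr1d2 were also set against 6 measures of the libraries, and none of the 12 relations passed the adjusted threshold. The smallest adjusted p was that of Nr1d2 with the median absolute difference of a library from the others (r = 0.539, rho = 0.830, adjusted permutation p = 0.299 and 0.0575), with r = 0.763 without SD replicate 4 and r = 0.357 on deviations from the group means. The next were the summed myoepithelial markers, nearly all Acta2, with Per2 (r = 0.634, rho = 0.782, adjusted permutation p = 0.299 and 0.0618) and the estimated depth with Nr1d2 (r = -0.672, rho = -0.697, adjusted permutation p = 0.299 and 0.121). The part of these library measures in the differences of these genes was not tested.

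Of 16 further genes of the clock, 14 varied, since Rorb and Fbxl21 were at the lowest value in every library. Of the 14, 7 were higher and 7 lower in EE, with a median difference of 0.018. Across all genes tested, 3.35% were called higher and 4.05% lower at an unadjusted p under 0.05 in limma. Of the 14, 0 were called higher and 1 lower. That gene was Gsk3b, a kinase that phosphorylates several clock proteins, with 1054, 1189, 916, 907 and 1147 normalized counts in EE, against 1553, 1258, 1533, 1092 and 1685 in SD. Only SD replicate 4 fell inside the EE range, and the difference was -0.41 ± 0.13 (SE, limma, adjusted p = 0.556, exact permutation p = 0.0238), or -0.50 ± 0.11 without that library (limma, adjusted p = 0.249). Clock, the partner of Arntl, differed by -0.09 ± 0.13 (SE, limma, adjusted p = 0.906), and Npas2, which can stand in for it, by -0.06 ± 0.12 (SE, limma, adjusted p = 0.924). Csnk1d and Csnk1e, kinases that mark PER proteins for decay, differed by -0.0032 and 0.09, and the factor Nfil3, which competes with DBP and TEF for D-boxes, by -0.13 ± 0.27 (SE, limma, adjusted p = 0.927).

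**Figure D5:**
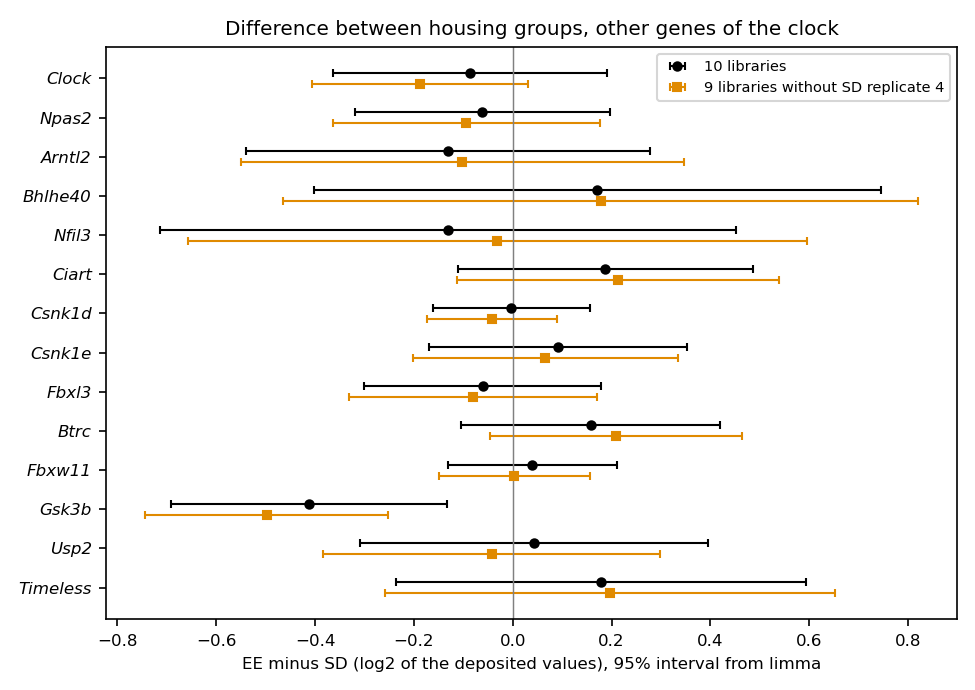
EE minus SD difference (horizontal axis, log2 of the deposited values) of 14 further clock genes with 95% intervals from limma, over 10 libraries (black circles) and over 9 libraries without SD replicate 4 (orange squares). The interval of Gsk3b alone lies below 0 in both sets, and those of the other 13 genes include 0.

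Genes that feed into the clock or follow from it were taken as 3 further lists. Across all genes tested, the shares called at an unadjusted p under 0.05 in limma were 3.35% higher and 4.05% lower. Without SD replicate 4 these shares were 5.15% and 5.24%. Of 6 genes induced by glucocorticoids, 1 was higher and 5 were lower, and 1 was called at an unadjusted p under 0.05. It was Zbtb16, with 45.5, 82.5, 66.8, 57.3 and 35.0 normalized counts in EE, against 35.4, 37.8, 15.6, 27.7 and 15.4 in SD, a difference of 0.48 ± 0.15 (SE, limma, adjusted p = 0.560, exact permutation p = 0.0238). Klf9 was called lower without SD replicate 4 only, at -0.26 ± 0.099 (SE, limma, adjusted p = 0.428, exact permutation p = 0.0397). Sgk1, another gene of this list, was low in EE replicate 2 (599 normalized counts) and in SD replicate 1 (1227), against 4691 to 8628 elsewhere. EE replicate 2 was also the library lowest in Per1. In that library, however, Fkbp5 (2924) and Zbtb16 (82.5) of the same list were at their highest. Tsc22d3 (757), Klf9 (2390) and Dusp1 (40.7) were there at neither extreme. A relation of this list with Per1 was not tested. None of 5 immediate early genes was called in either direction, Fos at -0.17 ± 0.21 and Junb at -0.23 ± 0.23 among them (SE, limma, adjusted p = 0.891 and 0.872). Of 6 output genes, 1 was called, Alas1, the first enzyme of haem synthesis, at 0.25 ± 0.11 (SE, limma, adjusted p = 0.671, exact permutation p = 0.0714), and at 0.33 ± 0.089 without SD replicate 4 (limma, adjusted p = 0.322).

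The patterns most like those of single clock genes over 10 libraries were looked up by Pearson's r among 8127 genes with a mean normalized count of at least 100, as a description. For Nr1d1 these were Fam84a (r = 0.929), Zbtb7a (0.892), Nsmf (0.892), Rita1 (0.887) and LOC498368 (0.885), and for Arntl they were Stxbp6 (0.873), Pdk4 (0.873), Tbc1d14 (0.867), Pts (0.865) and Zbtb44 (0.862). For Per2 and Nr1d2, chosen after their values were seen, they were led by Supt7l (0.926) and by Eef1a1 (0.942). None of these was a clock gene of the lists above. Among the listed clock genes, Usp2, a deubiquitinase of clock proteins, came 68th of the 8127 for Per2 (r = 0.755), and Npas2 was near the other end (r = -0.778), with its highest level, 3876 normalized counts, in EE replicate 5, where Per2 was lowest. Gsk3b, which was called lower in EE like Nr1d2, came 23rd for Nr1d2 (r = 0.849). The housing difference of both genes enters this r, and their r on deviations from the group means was not computed. These values come from 10 libraries and carry no test.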

How the data were processed

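RNA of the milk fat layer was measured in 10 libraries, grouped by the housing given in the labels. Reads were single-end, from a kit that keeps strand, and the authors aligned them to rn6 and used DESeq2. The read counter and annotation are not given in the sources used here. The deposited values are log2 values per gene and library, with a shared lowest value of 5.46 where a gene had no reads, the mark of variance stabilization. They are labelled as regularized log values, but were inverted as variance-stabilized ones, and every normalized count and read estimate rests on that reading. Depth was estimated from the step that 1 read makes, which left 93.9% to 98.7% of values of up to 9 reads whole within 0.1 read. No raw counts were used, and genes with few reads are measured least precisely. The authors' table of their comparison (mean counts, log2 fold changes, standard errors, statistics and p-values) was not used.

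Genes with 1 value in all libraries (3756 of 16748) were left out, and the rest were fitted for EE minus SD in limma 3.58.1 (R 4.3.3) using lmFit and trended eBayes. Tests were two-sided and p was adjusted by Benjamini-Hochberg over every gene fitted. The fit over 9 libraries leaves out SD replicate 4. Single genes were also compared by exact permutation tests over all arrangements of the libraries, whose smallest p is 0.00794, and correlations by 100000 permutations, in Python 3.11.15. The samples were fitted as unpaired, since the labels name no pairing by replicate number. Same-numbered libraries gave correlations of deviations of -0.0946 to 0.295. Libraries of unlike number were not compared, so these values cannot exclude a pairing. Promoters came from RefSeq (GRCr8), a build other than that of the files, so their positions were not used with the counts. Alternatives covered scaling, filter, pseudocounts of 1 and 10, moderation, array weights, the casein share as a covariate, the replicate block and each library left out. All 10 clock genes were named, with called genes of the lists and the 5 genes most like Nr1d1 and Arntl at a mean count of at least 100. Other genes named as unlike or like Per2 and Nr1d2, and Sgk1, were chosen after their values were seen. The members and lists were chosen with earlier results of these data known. The script was tested on simulated data.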

Additional observations from a re-analysis of the deposited data

Results flagged for a closer look

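Single libraries lay far from the rest of their housing group in 6 of 50 groups of 5 libraries screened. In each of the 6 the gap was more than 0.71 of the range of the deposited log2 values in the group. The usual rate of about 1 in 20 assumes independent groups of normally distributed values, but these groups share the same 10 libraries. The 6 are therefore not read as an excess over that rate. In EE replicate 5, Per2 (278.8 normalized counts) and Cry1 (1999) lay below the other EE libraries and Npas2 (3876) lay above them. In SD replicate 4, Cry2 (159.8) and the deubiquitinase gene Usp2 (148) lay below the other SD libraries. Ciart, a repressor of CLOCK and BMAL1 with few reads here, was low in EE replicate 2 (16.48 normalized counts). SD replicate 4 also stood apart over all genes, and EE replicate 5 had the lowest casein share, and the part of either in these values was not tested.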

How the results depend on the processing

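The adjusted threshold was passed by 0 genes, with 1 after quantile normalization and 0 to 1 when single libraries were left out. At an unadjusted p under 0.05, 961 genes were called, with 625 to 1346 when single libraries were left out. The count of clock genes called was 1 as reported. It was 2 without a filter, with pseudocounts of 1 or 10, with array weights and by the exact permutation test, each time adding Arntl. Of all genes, 1064 were called without a filter, 945 and 987 with those pseudocounts and 1202 with array weights. The exact permutation test was run on genes of the lists only. The count of clock genes was 5 with the casein share as a covariate (Nr1d2, Per2, Cry1, Tef and Arntl), where 951 of all genes were called. It was 1 to 4 when single libraries were left out. The 4 were without EE replicate 5 (Nr1d2, Per2, Cry1 and Cry2), where 901 of all genes were called. The median difference of the clock genes was 0.49 with the casein covariate, against 0.13. The median of all genes with that covariate is not given here. The casein share itself differed between the groups, with means of 50.9% in EE and 59.3% in SD. Signs turned for genes with small differences: Dbp was 0.0209 with array weights, 0.27 with the casein covariate and -0.17 to 0.13 over left-out libraries, Per1 ranged over -0.18 to 0.0842 and Nr1d1 over -0.24 to 0.15. The correlation of Per3 with Arntl was 0.14 on deviations from group means and -0.23 to 0.0108 over left-out libraries, that of Nr1d1 with Arntl -0.43 to 0.26 and that of Dbp with Arntl -0.41 to 0.0275. The cause of these changes was not tested. With the replicate block, 1100 genes and 1 clock gene were called at an unadjusted p under 0.05, and no call of a clock gene changed. Few reads limit Nr1d1 (28 to 152 estimated reads) and Per3 (22 to 363).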
